A study of Drosophila melanogaster with 21 samples.

Results

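This account compares the heads of starved and of fed female flies (Drosophila melanogaster), neither of them trained. The heads were assigned to the groups by their labels: 5 starved heads, labelled replicates 1 to 5, and 5 fed heads, labelled naive replicates 1, 2, 3, 5 and 6, which makes 10 of the 21 heads of the series. The remaining heads, 6 taken 1 h and 5 taken 4 h after starved flies were trained with an odor and sucrose, entered the same fit to estimate the spread of each gene. Every sample was a single head of a separate fly, kept at 25 °C with equal hours of light and dark, and polyA RNA was sequenced without keeping the strand. The fed flies had no precondition, training or sugar in the labels. The labels set the starved flies apart only by the lack of food, and they give neither the hours of starvation nor the strain or age. The comparison asks which metabolic, endocrine and neural pathways move with starvation itself, before any training.

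A fly head holds brain, eyes, glia, cuticle and a layer of fat body, the organ that in insects does the work of liver and adipose tissue. In a fed female the fat body makes yolk proteins, lipids and satiety signals, and insulin-like peptides from the brain keep the kinase TOR active and the transcription factor FoxO out of the nucleus. TOR drives the making of ribosomes, which begins in the nucleolus. When food is withdrawn, insulin-like signals fall, FoxO switches on genes for lipases and for restraint of growth, the kinase AMPK senses low energy, and hungry flies seek food with a changed response to sugar.

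Levels are given as RPKM, reads scaled by the authors to the length of the gene and the size of the library, in the order of the replicate numbers. The library size in this scaling was not the read total of the head. It was 0.813 to 1.01 times the reads on genes in fed heads and 0.915 to 1.13 times in starved heads. Reads on genes ran from 39903069 to 66553894 in fed heads and from 36019296 to 56482214 in starved heads. The 10 most abundant genes of each head took 15.6% to 19.5% of the reads in fed heads and 10.5% to 11.5% in starved heads, so the groups did not overlap in this measure. One head in each group stood apart. Starved replicate 3 lay more than 1 log2 unit below each of the other starved heads in 446 of 10501 tested genes, against at most 18 for any other starved head. Fed replicate 2 lay as far above the other fed heads in 326 genes, of which 102 were small structural RNA genes, and these RNAs took 3.25% of its reads against at most 0.0266% in the other fed heads. Results that rest on these heads are given with and without them. All differences below are log2 fold changes of RPKM + 1, starved minus fed, which understate the change of genes near 1 RPKM.

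A gene was tested where 5 or more of the 21 heads had 1 RPKM or more. Of 10501 such genes 159 (1.51%) differed between starved and fed heads at a Benjamini-Hochberg adjusted p below 0.05 in limma, 59 higher (0.562%) and 100 lower (0.952%) in starved heads. Falls were larger than rises: the median fall was -0.96 and the median rise 0.55, and 48 genes fell but 4 rose by more than 1 log2 unit. In 118 of the 159 genes the 5 starved and 5 fed heads did not overlap, and over all tested genes this held for 423 (4.03%, 1.9% above and 2.13% below). Without adjustment 19.4% of the tested genes had a p under 0.05 (8.85% higher and 10.6% lower in starved heads). The median of all tested genes was -0.00. The number of calls depended on single heads and on the fit. It was 784 without fed replicate 1, 286 without starved replicate 1, 28 without fed replicate 3, 61 (36 higher and 25 lower) without starved replicate 3, 34 without fed replicate 2 and 32 without fed replicate 6. It was 855 (778 higher and 77 lower) when each head was given an equal total RPKM, a scaling under which the tested genes had a median of 0.28. Fed replicate 2 had a total of 820048 RPKM, of which 181735 lay on small structural RNA genes. Totals ran from 487963 to 597559 RPKM in the other fed heads and from 381084 to 537984 RPKM in starved heads. What set the number of calls under the equal total was not tested. The number of calls was 14 when only the 10 heads compared were fitted, and 29 without both heads that stood apart (17 higher and 12 lower, 21 of them among the 159), an alternative chosen after the data were seen. All 159 genes kept their direction whichever head was left out, which their selection in the same data made likely. Of them 22, 10 higher and 12 lower, passed the test each time.

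**Figure D1:**
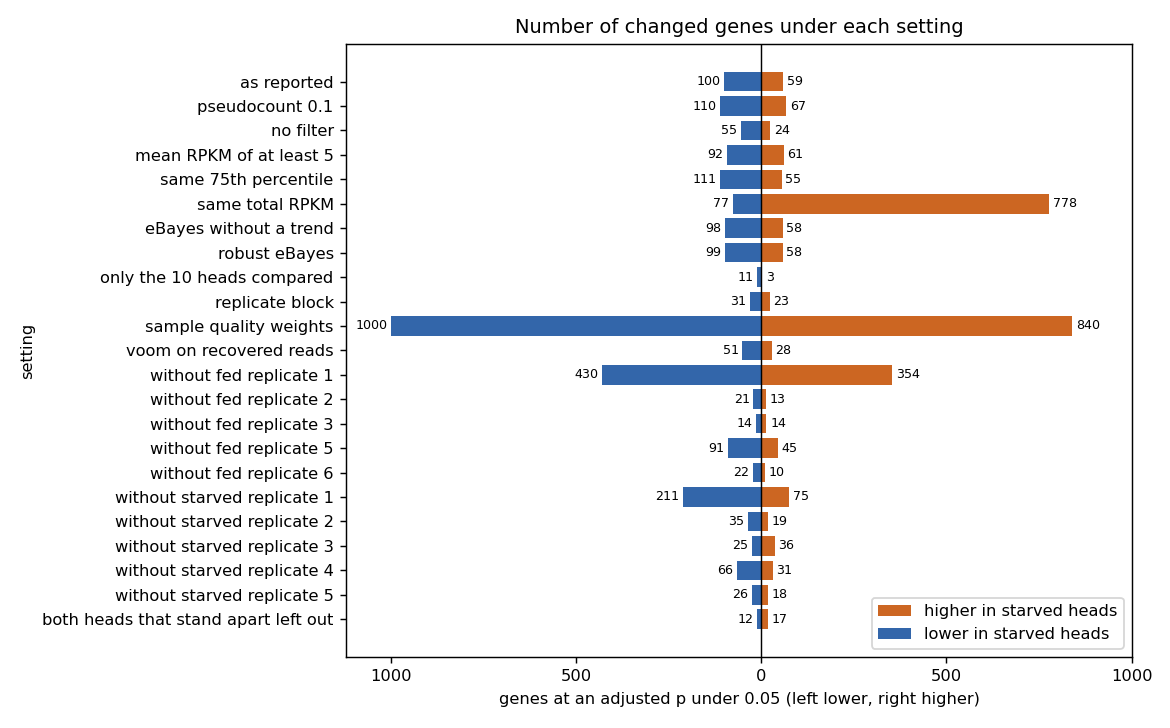
Number of genes past an adjusted p of 0.05 in limma (horizontal axis, lower in starved heads to the left, higher to the right) under each setting (vertical axis). The reported fit has 59 higher and 100 lower, whereas leaving out fed replicate 1 gives 354 and 430 and fitting the 10 heads alone gives 3 and 11.

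The largest falls were in products of the female fat body. Of 7 tested genes in the list of yolk proteins and female fat body genes, 4 fell (Yp1, Yp2, Yp3 and fit, 57.1% against 1.51% of all tested genes), 0 rose, and the median of the list was -3.75, with all 7 below 0. Yp1, which encodes a yolk protein taken up by the oocyte, had 14842, 25316, 26499.7, 15876 and 27571 RPKM in the fed heads and 4663, 4311, 41.6, 868 and 523 RPKM in the starved heads. Every starved head was below every fed head, and starved replicate 3 was far below the rest (log2 fold change -4.68, standard error 1.16, limma adjusted p = 0.0488). Yp2, its neighbor on the X chromosome, had 8199, 11528, 13978, 6463 and 13534 RPKM when fed and 1157, 1316, 19.2, 225 and 125 RPKM when starved (log2 fold change -5.39, standard error 1.07, limma adjusted p = 0.0216). Yp3 had 8016, 17574, 14398, 6219.7 and 20320.4 RPKM when fed and 1885, 5349.9, 44.8, 1171 and 1084 RPKM when starved (log2 fold change -3.75, standard error 0.92, limma adjusted p = 0.0487). The spread among starved heads was wide for all 3 yolk genes. Of the 10 fits that left out 1 head, Yp1 was called in 2, Yp2 in 6 and Yp3 in 3. Without starved replicate 3 and fed replicate 2 the adjusted p was 0.188 for Yp1, 0.0888 for Yp2 and 0.155 for Yp3. In whole heads, fewer fat body cells and less RNA per cell cannot be told apart.

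The secreted satiety signal fit, which the fat body releases after a protein meal, had 263, 1102, 672, 223 and 717 RPKM in fed heads and 9.28, 14.3, 0.965, 24.2 and 1.61 RPKM in starved heads. The groups were separated by a wide gap, the lowest fed head being 223 RPKM (log2 fold change -6.10, standard error 0.84, limma adjusted p = 0.00192), and the call held without any 1 head. The gene phu had 164, 192, 586, 16.6 and 363 RPKM in fed heads and 2.06, 1.54, 1.101, 1.09 and 1.13 RPKM in starved heads, again with no overlap (log2 fold change -6.12, standard error 1.26, limma adjusted p = 0.0257). It was called in 4 of the 10 fits that left out 1 head. The cathepsin-type gene CtsL3 had 7.69, 6.06, 12.3, 5.32 and 15.5 RPKM when fed and 2.32, 1.63, 0, 2.44 and 0.706 RPKM when starved (log2 fold change -2.14, standard error 0.40, limma adjusted p = 0.0168). CG42329 had 9.97, 12.6, 43.5, 10.5 and 15.7 RPKM when fed and 3.16, 2.92, 3.54, 3.17 and 2.66 RPKM when starved (log2 fold change -2.03, standard error 0.33, limma adjusted p = 0.00689). Both were lower in every starved head.

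The gene fit lies on chromosome 3R from 21883924 to 21884454 (dm6 coordinates from the BDGP6.54 annotation), on the minus strand, and its neighbors fell with it. CG31465, on chromosome 3R from 21880810 to 21883990, had 4.96 to 19.6 RPKM in fed and 0.0151 to 0.229 RPKM in starved heads (log2 fold change -3.39, limma adjusted p = 1.85e-05), and the antisense gene asRNA:CR45046, on chromosome 3R from 21878672 to 21884101, had 8.19 to 32.96 RPKM in fed and 0.0663 to 0.719 RPKM in starved heads (log2 fold change -3.98, limma adjusted p = 2.37e-05). P5CDh2, a member of the family that oxidizes an intermediate of proline breakdown, on chromosome 3R from 21877936 to 21880696, had 8.59, 10.8, 25.9, 7.97 and 27.3 RPKM when fed and 2.82, 3.02, 2.89, 3.33 and 3.67 RPKM when starved (log2 fold change -1.86, standard error 0.25, limma adjusted p = 0.00166). CG34148, on chromosome 3R from 21877870 to 21878686, had 18.8 to 39.4 RPKM in fed and 11.9 to 15.5 RPKM in starved heads (log2 fold change -0.95, limma adjusted p = 0.0106). These genes overlap one another: CG31465 shares 3068 of its 3079 exonic bases with its neighbors, P5CDh2 shares 2255 of 2472, and fit shares only 99 of 531. Since the libraries did not keep the strand, the reads of CG31465, asRNA:CR45046, P5CDh2 and CG34148 cannot be told apart. All 5 genes of this stretch passed the test without any 1 head. The antisense gene asRNA:CR45601, all 875 exonic bases of which lie within Yp1, fell with it (log2 fold change -4.69, limma adjusted p = 0.0488) and is uncertain for the same reason.

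**Figure D2:**
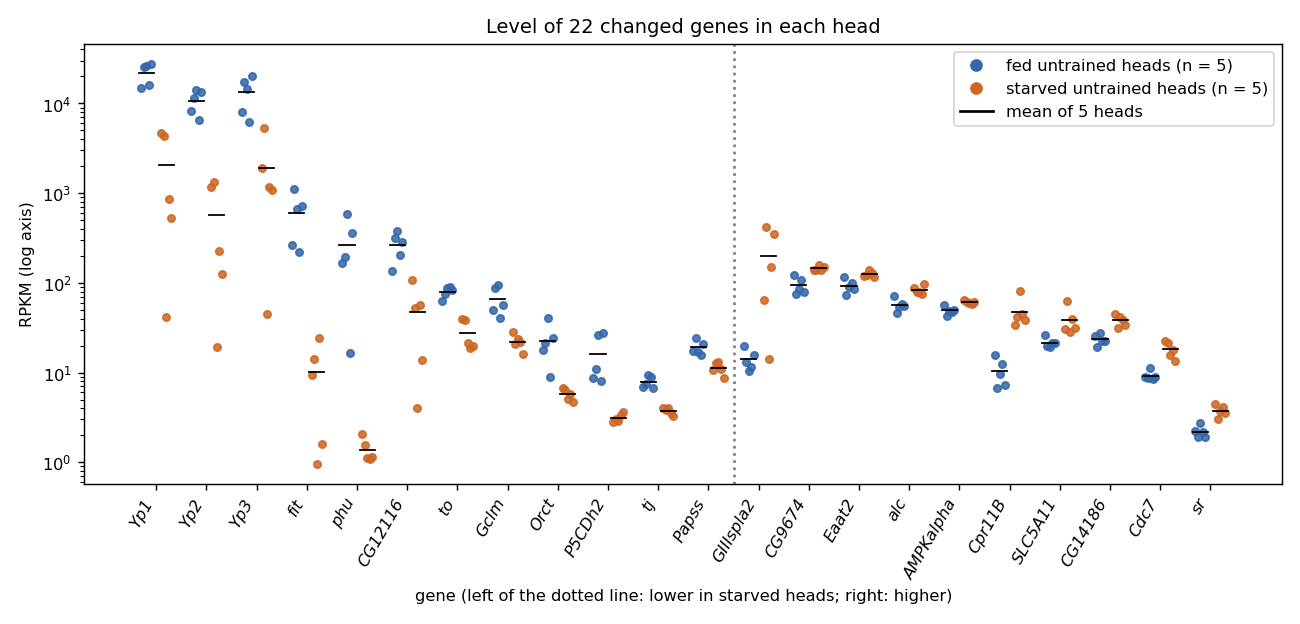
RPKM of 22 genes that passed the test (log axis) in each of 5 fed (blue) and 5 starved (orange) heads, with a black line at each mean; genes left of the dotted line were lower in starved heads. For fit the lowest fed head has 223 RPKM and the highest starved head 24.2 RPKM, whereas the AMPKalpha heads lie within 43.2 to 63.7 RPKM.

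Fat body genes also differed widely between heads of the same group. Starved replicate 3 held little RNA of many metabolic fat body genes. Its Tps1, which makes trehalose, the blood sugar of insects, had 5.22 RPKM, whereas the other starved heads had 235 to 809 and the fed heads 217 to 669 RPKM. AkhR, the receptor of the lipid-mobilizing adipokinetic hormone, had 12.999, 19.5, 17.5, 18.04 and 22.4 RPKM in fed heads and 18.9, 20.6, 0.513, 13.1 and 15.6 RPKM in starved heads. Hex-C, a fat body hexokinase, had 1.701 RPKM in starved replicate 3 against 57.8 to 157 in the other starved heads, and v, the first enzyme of tryptophan breakdown, had 1.12 against 36.9 to 70.99 RPKM. None of these 4 genes passed the test, and in each the other 4 starved heads overlapped the fed heads. The summed RPKM of the 19 fat body markers was 30803 to 68138 in fed heads, 4661 to 14764 in the other starved heads and 778 in starved replicate 3. The list of yolk proteins and female fat body genes, which shares Yp1, Yp2, Yp3 and fit with these markers, alone summed to 28812 to 62174 RPKM in fed heads. It summed to 1755 to 11033 RPKM in the other starved heads and 141 RPKM in starved replicate 3. In fed heads the marker sum was therefore mostly that of the yolk genes. Of the 18 tested markers 4 fell, the same Yp1, Yp2, Yp3 and fit as above, and 0 rose. Below 0 were 15 and above 0 were 3, bmm among them (median -0.96). Without starved replicate 3, 2 were called and the median was -0.40. The study took heads off either by vortexing or by cutting, the labels do not say which way each head was taken, and whether this bears on the fat body left in a head was not tested.

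Fed heads also differed among themselves. Lsp2, a storage protein, had 3.35, 1520.1, 241, 2.47 and 1891 RPKM in fed heads, so replicates 1 and 5 were at the level of the starved heads, which had 1.34, 3.44, 1.29, 0.814 and 1.95 RPKM (log2 fold change -5.26, standard error 1.33, limma adjusted p = 0.0516). The glucosidase gene tobi, known as a target of insulin-like and glucagon-like signals, repeated this pattern with 2.47, 673, 79.5, 2.38 and 542 RPKM in fed and 2.36, 2.93, 1.47, 1.46 and 2.25 RPKM in starved heads (log2 fold change -4.07, standard error 1.10, limma adjusted p = 0.06404). Gnmt, which disposes of excess methyl groups, had 7.27, 129, 165, 3.98 and 176 RPKM in fed heads and 0.797, 139, 0.706, 1.64 and 43.96 RPKM in starved heads (log2 fold change -2.32, limma adjusted p = 0.438). Fed replicates 1 and 5 were low for all 3 genes, and starved replicates 2 and 5 were high for Gnmt but not for Lsp2 or tobi. None of the 3 passed the test with all heads. Without fed replicate 5 Lsp2 (log2 fold change -6.48, limma adjusted p = 0.01405) and tobi (log2 fold change -5.05, limma adjusted p = 0.0178) did. Over the tested genes the median standard deviation on the log2 scale was 0.17 among fed and 0.15 among starved heads, and it was over 1 in 294 and 379 genes.

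**Figure D3:**
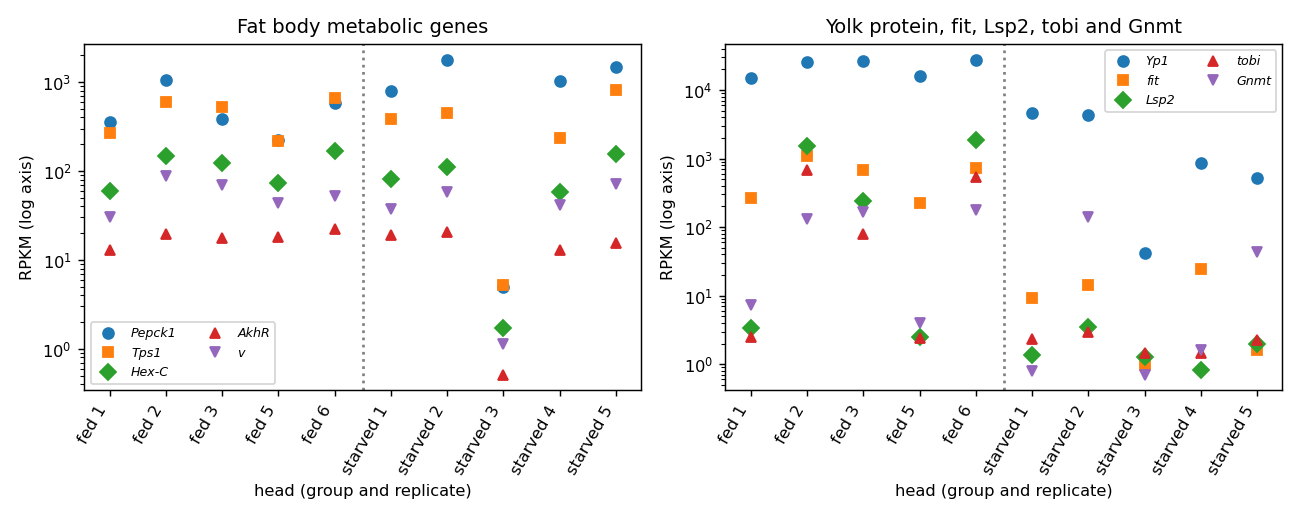
RPKM (log axis) of 10 fat body genes in each fed and starved head, named by group and replicate. In the left panel starved replicate 3 is lowest for all 5 genes; in the right panel fed replicates 1 and 5 lie near the starved heads for Lsp2 and tobi, while Yp1 and fit separate the groups.

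Within nutrient signalling, the insulin and TOR genes that passed with all heads belonged to the energy sensor. No tested gene of the insulin branch did. In the insulin and TOR list 2 of 29 tested genes rose (6.9%, against 1.51% of all tested genes) and 0 fell, and both encode subunits of AMP-activated protein kinase. AMPKalpha, its catalytic subunit, had 56.4, 43.2, 49.1, 46.9 and 50.3 RPKM in fed and 63.7, 61.5, 59.04, 57.5 and 60.5 RPKM in starved heads (log2 fold change 0.30, standard error 0.06, limma adjusted p = 0.0322). The beta subunit alc had 71.01, 46.7, 53.9, 58.6 and 55.03 RPKM in fed and 86.8, 79.2, 78.4, 75.6 and 97.5 RPKM in starved heads (log2 fold change 0.55, standard error 0.14, limma adjusted p = 0.0488). Both were higher in every starved than in any fed head, though by small amounts, and the rise of alc was called in 1 and that of AMPKalpha in 3 of the 10 fits that left out 1 head. The gamma subunit SNF4Agamma, at 14.6 to 17.8 RPKM in fed and 16.2 to 24.5 RPKM in starved heads, did not pass (log2 fold change 0.18, limma adjusted p = 0.419). The median of the list was 0.10, and 0 of its genes were called without both heads that stood apart. The transcription factor foxo (log2 fold change 0.18, limma adjusted p = 0.462) and Thor, the translational brake 4E-BP that FoxO induces (log2 fold change 0.29, limma adjusted p = 0.641), did not pass, and Thor ran from 232 to 397 RPKM in fed and from 264 to 613 RPKM in starved heads. Without fed replicate 1, Lnk (log2 fold change 0.42, limma adjusted p = 0.0197) and Sin1 (log2 fold change 0.17, limma adjusted p = 0.0426) passed as well. InR, Tor and S6k were not analysed here.

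Of 10 tested insulin-like peptides and their partners, 0 passed. Ilp2, made by the insulin-producing cells of the brain, had 52.5, 66.9, 66.3, 61.7 and 69.6 RPKM in fed and 56.0, 50.5, 58.2, 45.2 and 49.5 RPKM in starved heads (log2 fold change -0.28, limma adjusted p = 0.1699). Ilp5, made by the same cells, had 4.26, 12.8, 5.55, 2.49 and 10.03 RPKM in fed and 1.52, 3.68, 1.901, 2.31 and 2.57 RPKM in starved heads, with fed replicate 5 within the starved range (log2 fold change -1.10, limma adjusted p = 0.111). Ilp3 (log2 fold change -0.32, limma adjusted p = 0.448) and the fat body peptide Ilp6 (log2 fold change -0.73, limma adjusted p = 0.309) overlapped between the groups. ImpL2, a secreted protein that binds insulin-like peptides, had 7.69, 10.4, 8.41, 6.001 and 6.88 RPKM in fed heads and 19.6, 50.3, 3.67, 46.0 and 125 RPKM in starved heads, higher in 4 of 5 starved heads than in any fed head but lowest of all in starved replicate 3 (log2 fold change 1.83, limma adjusted p = 0.1699). NLaz, a lipocalin that opposes insulin signalling, was lower in every starved head but did not pass (log2 fold change -0.57, limma adjusted p = 0.0758). Among 14 tested fat body to brain signals fit alone fell (7.14%, against 1.51% of all tested genes), 0 rose, and AkhR did not pass (log2 fold change -0.79, limma adjusted p = 0.435). The ligands Akh and upd2 were below the filter, at no more than 0.469 and 0.215 RPKM in any of the 10 heads.

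None of the 15 tested genes in the list of FoxO targets passed, although 12 were above 0 (49.6% of all tested genes were) and the median was 0.29. The list is not a full set of FoxO targets. The heparan sulfate proteoglycan dlp was higher in every starved head, at 7.796 to 10.6 against 6.73 to 7.35 RPKM, and did not pass (log2 fold change 0.33, limma adjusted p = 0.0966). Among 24 sugar-sensing and starvation transcription factors 0 passed. The sugar sensor Mondo (log2 fold change 0.17, limma adjusted p = 0.661), its target gene sug (log2 fold change -1.51, limma adjusted p = 0.199) and cbt (log2 fold change -0.50, limma adjusted p = 0.288) overlapped between the groups, and sug had 8.504, 17.5, 11.1, 19.8 and 19.5 RPKM in fed and 24.2, 14.9, 0.8597, 2.23 and 1.03 RPKM in starved heads. CrebB, a cAMP-responsive factor, was higher in every starved head (log2 fold change 0.22, limma adjusted p = 0.103) and Mitf, a regulator of lysosome genes, lower in every one (log2 fold change -0.23, limma adjusted p = 0.0732), both short of the threshold, and with heads scaled to the same total RPKM Mitf was above 0 (log2 fold change 0.07).

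With all heads no gene in the 3 lists of lipid metabolism passed, but the heads were far from uniform. Of 23 tested genes of triglyceride storage and lipolysis 0 passed, with a median of 0.15 (0.10 to 0.20 with 1 head left out). Without both heads that stood apart 1 was called, 17 of 23 were above 0 and the median was 0.31. That gene was CG5966, a lipase of the pancreatic type named here after its values were seen, which had 12.03, 11.9, 8.85, 3.94 and 45.7 RPKM in fed and 57.2, 309, 1.35, 155 and 126 RPKM in starved heads. Starved replicate 3 was below every fed head and the other starved heads above every one. It did not pass with all heads (log2 fold change 2.22, limma adjusted p = 0.195), but did without starved replicate 3 (log2 fold change 3.39, limma adjusted p = 0.005002) and without both (log2 fold change 3.39, limma adjusted p = 0.0142). Without fed replicate 1 alone the lipase Hsl passed (log2 fold change 0.25, limma adjusted p = 0.0233). The triglyceride lipase bmm (brummer) had 42.04, 22.9, 47.7, 28.5 and 37.7 RPKM in fed heads and 45.7, 135, 46.7, 65.2 and 249 RPKM in starved heads (log2 fold change 1.29, limma adjusted p = 0.209). The lipase Lip4 had 12.4, 10.8, 11.7, 6.72 and 13.3 RPKM in fed and 11.8, 49.6, 7.22, 22.5 and 50.4 RPKM in starved heads (log2 fold change 0.97, limma adjusted p = 0.202). Starved replicates 2, 4 and 5 were above every fed head for both, and starved replicate 3 was within the fed range for bmm and Lip4. Lsd-2, a coat protein of lipid droplets, gave log2 fold change 0.69, limma adjusted p = 0.289, the lipase Hsl log2 fold change 0.20, limma adjusted p = 0.0968, and the fatty acid transporter Fatp2, lower in every starved head, log2 fold change -0.34, limma adjusted p = 0.1698. Of 33 tested genes of mitochondrial fatty acid oxidation 0 passed, and the median of 0.15 became 0.45 without starved replicate 3, with 23 of 33 above 0, and -0.04 without starved replicate 2. The carnitine acyltransferase CROT had 9.73, 10.4, 7.28, 6.95 and 15.3 RPKM in fed and 17.01, 112, 5.41, 42.2 and 27.5 RPKM in starved heads (log2 fold change 1.39, limma adjusted p = 0.195). The carnitine palmitoyltransferase whd (log2 fold change 0.29, limma adjusted p = 0.485) and Mcad, which shares most of its exons with CG7457 (log2 fold change 0.60, limma adjusted p = 0.557), did not pass, nor did the peroxisomal oxidase Acox57D-d (log2 fold change -0.96, limma adjusted p = 0.196).

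Of 24 tested genes of fatty acid and sterol synthesis 0 passed (median 0.01, -0.14 to 0.02 with 1 head left out). The fatty acid synthase gene FASN1 was not analysed here. ACC, which commits carbon to fatty acids, had 76.1, 136, 177, 65.6 and 157 RPKM in fed and 106, 153, 34.1, 122 and 318 RPKM in starved heads, the widest range being among the starved (log2 fold change 0.04, limma adjusted p = 0.973). ATPCL (log2 fold change -0.35, limma adjusted p = 0.644) and Zw, a source of NADPH (log2 fold change -0.30, limma adjusted p = 0.808), overlapped likewise. The elongase Baldspot was lower in every starved head, at 46.7 to 49.4 against 56.8 to 97.6 RPKM, and passed without fed replicate 1 (log2 fold change -0.70, limma adjusted p = 0.04702) but not with all heads (log2 fold change -0.61, limma adjusted p = 0.114), nor did SCAP (log2 fold change 0.19, limma adjusted p = 0.182). Outside the lists, chosen after their values were seen, the secreted phospholipase GIIIspla2 rose, with 19.7, 13.1, 10.3, 11.5 and 15.5 RPKM in fed and 65.2, 415, 14.2, 151 and 350.4 RPKM in starved heads (log2 fold change 3.00, standard error 0.65, limma adjusted p = 0.0301), and starved replicate 3 alone lay within the fed range. Orct, an organic cation transporter, fell, with 8.89 to 40.9 RPKM in fed and 4.67 to 6.66 RPKM in starved heads, lower in every starved head (log2 fold change -1.66, standard error 0.35, limma adjusted p = 0.0294). The acyl-CoA synthetase pdgy rose as well (log2 fold change 0.65, limma adjusted p = 0.0487). Of the 10 fits that left out 1 head, pdgy was called in 2, GIIIspla2 in 4 and Orct in 4.

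Carbohydrate genes gave 0 calls in 24 tested genes of glycolysis and gluconeogenesis (median 0.13, 0.28 without both heads that stood apart), 24 of glycogen, trehalose and sugar transport (median -0.04, -0.13 to 0.04 with 1 head left out) and 11 of carbohydrate digestion. Pepck1, the entry enzyme of gluconeogenesis, had 359, 1064, 387, 226 and 579 RPKM in fed and 801, 1782, 4.996, 1015 and 1463 RPKM in starved heads. Starved replicates 2, 4 and 5 were above or near the highest fed head and starved replicate 3 was nearly without it, so the fold change of -0.12 (limma adjusted p = 0.961) became 1.71 without the heads that stood apart, again short of the threshold (limma adjusted p = 0.323). The genes fbp (log2 fold change -0.68, limma adjusted p = 0.531), Ldh (log2 fold change -0.99, limma adjusted p = 0.456) and Hex-C (log2 fold change -1.18, limma adjusted p = 0.4097) did not pass. The hexokinase Hex-A (log2 fold change 0.41, limma adjusted p = 0.137) and the glycerophosphate oxidase Gpo1 (log2 fold change -0.82, limma adjusted p = 0.0826) came nearest, and Gpo1 passed without fed replicate 5 (log2 fold change -1.07, limma adjusted p = 0.0151). Glycogen synthase Glys (log2 fold change 0.09, limma adjusted p = 0.8802), glycogen phosphorylase Glyp (log2 fold change -0.52, limma adjusted p = 0.358), trehalase Treh (log2 fold change 0.17, limma adjusted p = 0.554) and Tps1 (log2 fold change -1.18, limma adjusted p = 0.464) overlapped between the groups. The trehalose transporters Tret1-1 (log2 fold change -1.11, limma adjusted p = 0.0791) and Tret1-2 (log2 fold change -1.22, limma adjusted p = 0.0885) were the lowest in p of their list. Mal-A5, a maltase, was higher in every starved head, at 58.4 to 75.003 against 37.7 to 56.6 RPKM, and just missed the threshold (log2 fold change 0.60, limma adjusted p = 0.0627). The near-identical amylases Amy-p (log2 fold change 0.71, limma adjusted p = 0.7101) and Amy-d (log2 fold change 0.17, limma adjusted p = 0.9397), whose reads may be split between them, ranged over both groups, and Amyrel was below the filter.

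A sugar sensor passed the test with all heads and in 3 of the 10 fits that left out 1 head. SLC5A11, a sodium-coupled sugar cotransporter that in hungry flies acts in the brain as a sensor of nutritious sugar, had 26.4, 19.9, 19.2, 21.1 and 21.3 RPKM in fed and 30.5, 62.6, 28.04, 39.4 and 31.6 RPKM in starved heads, higher in every starved head (log2 fold change 0.75, standard error 0.18, limma adjusted p = 0.0477). It lies on chromosome 2L from 8200465 to 8205132, and 1337 of its 2660 exonic bases are shared, mostly with the antisense gene asRNA:CR44119, which rose with it (log2 fold change 0.72, limma adjusted p = 0.04503) and cannot be told apart from it without the strand.

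Genes of the respiratory chain leaned upward by small amounts. Of 67 tested nuclear genes of oxidative phosphorylation 0 passed, 60 were above 0 and the median was 0.13. It stayed between 0.05 and 0.18 when any 1 head was left out and was 0.18 without the heads that stood apart. The complex I subunits ND-51 (log2 fold change 0.23, limma adjusted p = 0.132) and ND-SGDH (log2 fold change 0.20, limma adjusted p = 0.3499) had the lowest p. In the citric acid cycle 0 of 25 tested genes passed and 20 were above 0 (median 0.16, 0.08 to 0.22 with 1 head left out), with SdhB at log2 fold change 0.27, limma adjusted p = 0.257 and Scsalpha1 at log2 fold change 0.75, limma adjusted p = 0.259. Genes of the mitochondrial genome lay mostly the other way: 0 of 35 passed, 9 were above 0, and the median was -0.17, which turned to 0.13 under the scaling below, with mt:ND6 at log2 fold change -0.58, limma adjusted p = 0.212 and mt:ND4L at log2 fold change -0.56, limma adjusted p = 0.275. When every head was scaled to the same total RPKM the median of all genes moved to 0.28, and the nuclear and mitochondrial lists then had medians of 0.46 and 0.13, that is 0.18 and -0.15 relative to all genes.

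Many of the other genes that fell serve the assembly of ribosomes. A list of 57 tested nucleolar genes, written after the values were seen and so no test of its direction, held 16 genes that fell and 0 that rose, with 53 below 0 and a median of -0.53. The nucleolar protein gene nop5, a core part of the particle that methylates ribosomal RNA, had 16.4, 26.2, 17.9, 21.01 and 16.5 RPKM in fed and 17.9998, 7.01, 3.98, 8.203 and 4.39 RPKM in starved heads, with starved replicate 1 within the fed range (log2 fold change -1.30, standard error 0.31, limma adjusted p = 0.0477). Its partner Nop56 (log2 fold change -1.01, limma adjusted p = 0.0487) and NHP2, of the particle that makes pseudouridine (log2 fold change -0.94, limma adjusted p = 0.0477), showed the same exception. The nucleolar gene mod was lower in every starved head, at 22.96 to 34.8 against 39.4 to 70.4 RPKM (log2 fold change -0.72, limma adjusted p = 0.0398), and pths (porthos), an RNA helicase, was called too (log2 fold change -0.52, limma adjusted p = 0.0477). Each of these 5 calls held in 2 of the 10 fits that left out 1 head. Other called members of the list held in up to 9 of these fits. Without fed replicate 1, 36 of the 57 were called, and without starved replicate 1, 42 were. The number below 0 was 52 of 57 without both heads that stood apart (median -0.40, 0 called).

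Of 8 tested genes that carry small nucleolar RNAs in their introns, also listed after the values were seen, 3 fell (Uhg1, Uhg3 and Uhg8), 0 rose and all 8 were below 0. Their summed level was 1661 RPKM in fed replicate 2, the head rich in small RNAs, and 199.9 to 329 RPKM in the other fed heads, against 113 to 263 RPKM in starved heads, and without both heads that stood apart 0 of the 8 were called (median -0.49). With 1 head left out 0 to 5 were called, and it was 0 without any 1 of fed replicates 2, 3 and 6 and starved replicates 2, 3 and 5. Uhg1 had 9.05 to 15.1 RPKM in fed and 4.63 to 9.27 RPKM in starved heads (log2 fold change -0.77, limma adjusted p = 0.0283). Of 28 tested ribosomal RNA genes, precursors and pseudogenes 9 fell, 0 rose and all were below 0 (median -1.37). Their sum ran from 1462 to 6053 RPKM in fed heads, highest in replicate 2, and from 529 to 1022 RPKM in starved heads. These copies are nearly identical and polyA libraries remove most of their RNA, so their reads are uncertain, and 0 were called without both heads that stood apart. The cytosolic ribosomal proteins behaved differently. All 77 tested genes were below 0 (median -0.32, or 0.01 with heads scaled to the same total RPKM) but 0 passed, the lowest p being that of RpL15 (log2 fold change -0.37, limma adjusted p = 0.243) and RpLP2 (log2 fold change -0.54, limma adjusted p = 0.256), and 2 were under 0.05 unadjusted. Their summed level was 25556 RPKM in starved replicate 3, 47182 to 68557 in the other starved heads and 48547 to 79872 in fed heads. Without starved replicate 3, 16 of 77 were above 0 and the median was -0.07, and without both heads that stood apart, 45 were above 0 and it was 0.02. Relative to all genes the median under the equal total was -0.27.

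**Figure D4:**
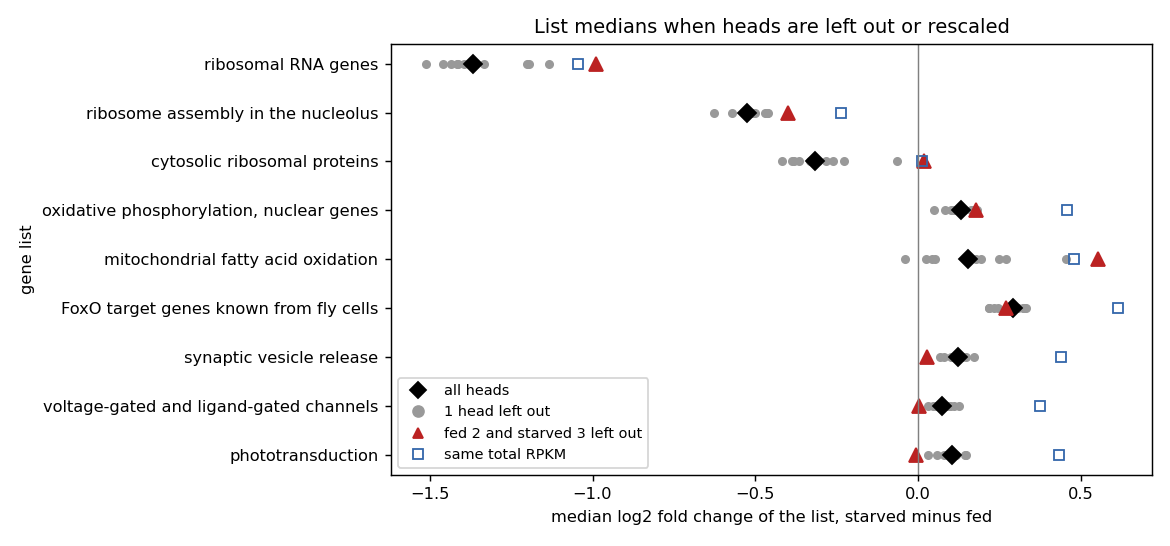
Median log2 fold change of 9 gene lists (horizontal axis) with all heads (diamonds), with 1 head left out (grey), without fed replicate 2 and starved replicate 3 (triangles) and with heads scaled to the same total RPKM (squares). The nucleolar list, written after the values were seen, stays below 0 throughout (-0.40 at the triangle). The ribosomal proteins go from -0.32 to 0.02 at the triangle, and the equal total, under which all tested genes have a median of 0.28, puts every square to the right of its diamond.

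Amino acid genes changed one by one. Of 40 tested genes of amino acid and one-carbon metabolism 2 fell (5%, against 1.51% of all tested genes), P5CDh2 (above) and Sam-S, which makes the methyl donor S-adenosylmethionine and had 97.1, 120.1, 120.2, 76.6 and 121 RPKM in fed and 72.8, 71.6, 48.4, 66.99 and 58.4 RPKM in starved heads (log2 fold change -0.73, standard error 0.15, limma adjusted p = 0.0283). The list had 0 rises and a median of -0.09, which ran from -0.40 to 0.01 with 1 head left out, lowest without starved replicate 5, and turned to 0.10 (25 of 40 above 0) without both heads that stood apart. Hn, phenylalanine hydroxylase (log2 fold change -0.23, limma adjusted p = 0.778), and v (log2 fold change -1.01, limma adjusted p = 0.395) did not pass. Chosen after its values were seen, LKR, which opens the breakdown of lysine, fell, with 12.9 to 34.9 RPKM in fed and 2.30 to 11.4 RPKM in starved heads, lower in every starved head (log2 fold change -1.66, standard error 0.37, limma adjusted p = 0.0359). The fall of LKR was called in 4 of the 10 fits that left out 1 head. Papss, the enzyme that makes the sulfate donor of the cell, had 17.4, 24.4, 17.04, 15.6 and 20.6 RPKM in fed and 10.6, 12.9, 13.2, 10.9 and 8.74 RPKM in starved heads and passed without any 1 head (log2 fold change -0.70, standard error 0.11, limma adjusted p = 0.00689). Glutamate synthase (CG9674), chosen after its values were seen, which makes glutamate from alpha-ketoglutarate, went the other way, with 123, 74.5, 85.1, 108 and 78.3 RPKM in fed and 137, 138, 159, 139 and 151 RPKM in starved heads, higher in each starved head (log2 fold change 0.65, standard error 0.16, limma adjusted p = 0.0488). The rise of CG9674 was called in 3 of the 10 fits that left out 1 head.

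Of 14 tested genes of pteridine and tetrahydrobiopterin synthesis 2 fell (14.3%, against 1.51% of all tested genes) and 0 rose (median -0.22, -0.39 to -0.16 with 1 head left out). CG12116 had 134, 319.7, 381, 205 and 288 RPKM in fed and 109, 52.1, 4.01, 57.2 and 13.7 RPKM in starved heads, below every fed head but close to fed replicate 1 in starved replicate 1 (log2 fold change -3.05, limma adjusted p = 0.0162). CG33223, whose span contains CG12116, fell with it (log2 fold change -2.87, limma adjusted p = 0.0112). Their reads may be shared, so the 2 calls may be 1 signal. Pu, which starts the pathway from GTP, did not pass (log2 fold change -0.17, limma adjusted p = 0.777). Among 38 tested glutathione and antioxidant genes only Gclm fell (2.63%, against 1.51% of all tested genes) and 0 rose. Gclm, the modifier subunit of the enzyme that limits glutathione synthesis, had 49.9, 87.9, 93.5, 40.9 and 56.7 RPKM in fed and 27.99, 20.8, 23.4, 21.9 and 16.1 RPKM in starved heads (log2 fold change -1.48, standard error 0.32, limma adjusted p = 0.0294). The call of Gclm held in 4 of the 10 fits that left out 1 head. The catalytic subunit Gclc did not pass and leaned upward (log2 fold change 0.29, limma adjusted p = 0.272).

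Of 74 tested cytochrome P450 genes 2 rose and 3 fell (6.76%, against 1.51% of all tested genes). With 1 head left out 0 to 5 were called. It was 0 without any 1 of fed replicates 2, 3 and 6 and starved replicates 2, 4 and 5. Cyp6a17, which in the fly affects temperature preference, had 36.8 to 53.6 RPKM in fed and 63.1 to 104 RPKM in starved heads (log2 fold change 0.69, limma adjusted p = 0.0487) and Cyp6a9 had 15.9 to 24.8 RPKM in fed and 26.2 to 37.4 RPKM in starved heads (log2 fold change 0.61, limma adjusted p = 0.0487). Cyp4d21, a gene of sexual behavior in males, fell, with 17.3 to 26.8 RPKM in fed and 3.67 to 9.14 RPKM in starved heads (log2 fold change -1.60, limma adjusted p = 0.0398), with Cyp12b2 (log2 fold change -0.51, limma adjusted p = 0.0495) and Cyp6d4 (log2 fold change -0.56, limma adjusted p = 0.0477). In the takeout family 2 of 15 tested genes fell (13.3%, against 1.51% of all tested genes) and 0 rose. The gene to (takeout), a secreted lipid-binding protein tied to feeding and to the clock, had 63.2, 74.7, 88.3, 89.7 and 82.5 RPKM in fed and 39.1, 38.7, 21.6, 18.7 and 19.7 RPKM in starved heads (log2 fold change -1.56, standard error 0.30, limma adjusted p = 0.0196), and Jhbp15 had 2.43 to 10.5 RPKM in fed and 0.986 to 1.67 RPKM in starved heads (log2 fold change -1.18, limma adjusted p = 0.0255). Of 17 lipoproteins, lipocalins and storage proteins to alone fell (5.88%, against 1.51% of all tested genes). Among 32 odorant-binding and related proteins Obp83cd (log2 fold change -1.05, limma adjusted p = 0.0312) and Obp73a (log2 fold change -0.66, limma adjusted p = 0.0301) fell and 0 rose (6.25% called, against 1.51% of all tested genes). In the cuticle list 1 of 37 rose (2.7%, against 1.51% of all tested genes): Cpr11B, a cuticle protein, had 15.7, 6.71, 9.65, 12.5 and 7.302 RPKM in fed and 34.2, 42.04, 80.4, 44.6 and 38.2 RPKM in starved heads (log2 fold change 2.10, standard error 0.42, limma adjusted p = 0.0216). In the list of small structural RNAs 1 of 190 fell (0.526%, against 1.51% of all tested genes), snoRNA:Me18S-C419 (log2 fold change -0.99, limma adjusted p = 0.0477), beside the excess of these RNAs in fed replicate 2.

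Autophagy genes gave 0 calls in 31 (median 0.03). Atg1, the kinase that starts autophagy, did not pass (log2 fold change 0.03, limma adjusted p = 0.868), Atg8a, which coats the forming vesicle, ran from 180.0 to 258 RPKM in fed and from 228 to 429.6 RPKM in starved heads (log2 fold change 0.30, limma adjusted p = 0.403), and Atg10 gave log2 fold change 0.13, limma adjusted p = 0.142. The clock list had 0 calls in 21, with tim (log2 fold change -0.31, limma adjusted p = 0.431), per (log2 fold change 0.15, limma adjusted p = 0.438), vri (log2 fold change -0.17, limma adjusted p = 0.686) and Pdp1 (log2 fold change -0.01, limma adjusted p = 0.945) overlapping, and CkIIalpha (log2 fold change -0.28, limma adjusted p = 0.0738) and cry (log2 fold change 0.31, limma adjusted p = 0.155) lowest in p. The juvenile hormone and ecdysone list had 0 calls in 28, including Kr-h1 (log2 fold change -0.32, limma adjusted p = 0.412), Eip75B (log2 fold change 0.18, limma adjusted p = 0.334), Met (log2 fold change 0.12, limma adjusted p = 0.2604) and Oatp74D (log2 fold change -0.57, limma adjusted p = 0.2201). These lists had medians within 0.06 of 0.

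Where a neuropeptide or transmitter list had a call, it was 1 gene. That is 2.78% of neuropeptides, 4.76% of amine synthesis and transport and 8.33% of transmitter synthesis and clearance, against 1.51% of all tested genes. Of 36 tested neuropeptide genes 1 rose and 0 fell: AstC, the somatostatin-like allatostatin C, had 31.9 to 43.2 RPKM in fed and 42.3 to 52.1 RPKM in starved heads, with the lowest starved head inside the fed range (log2 fold change 0.38, standard error 0.08, limma adjusted p = 0.0268). The hunger-related peptides NPF (log2 fold change 0.11, limma adjusted p = 0.503) and sNPF (log2 fold change 0.07, limma adjusted p = 0.641) and the diuretic peptides Lk (log2 fold change -0.13, limma adjusted p = 0.491) and Dh44 (log2 fold change -0.21, limma adjusted p = 0.288) did not pass. Of 38 neuropeptide receptors 0 passed, Dh31-R (log2 fold change 0.29, limma adjusted p = 0.0752) and rk (log2 fold change 0.24, limma adjusted p = 0.0895) being lowest in p. In amine synthesis and transport 1 of 21 rose, prt (portabella), a vesicular transporter of the mushroom body, had 3.32 to 5.24 RPKM in fed and 5.15 to 6.06 RPKM in starved heads (log2 fold change 0.36, limma adjusted p = 0.0257). Its relative Vmat (log2 fold change 0.09, limma adjusted p = 0.575), tyrosine hydroxylase ple (log2 fold change -0.67, limma adjusted p = 0.159) and Tdc2, which makes tyramine (log2 fold change 0.11, limma adjusted p = 0.501), did not pass. In transmitter synthesis and clearance 1 of 12 rose, Eaat2, a member of the excitatory amino acid transporter family, with 115.2, 73.5, 90.7, 100.3 and 84.97 RPKM in fed and 118, 123, 140.5, 129 and 117 RPKM in starved heads (log2 fold change 0.44, standard error 0.09, limma adjusted p = 0.0294). AstC was called in 5, prt in 6 and Eaat2 in 4 of the 10 fits that left out 1 head. Of 43 amine receptors and cAMP genes 0 passed, with Ac76E, an adenylyl cyclase, lowest in p (log2 fold change -0.20, limma adjusted p = 0.113) together with CrebB.

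Of 19 activity-regulated early genes 3 rose (15.8%, against 1.51% of all tested genes) and 0 fell, and all 3 were called whichever head was left out. The gene sr (stripe), the fly relative of the EGR transcription factors, had 2.25, 1.92, 2.72, 2.17 and 1.91 RPKM in fed and 4.41, 3.04, 3.74, 4.09 and 3.49 RPKM in starved heads (log2 fold change 0.57, standard error 0.10, limma adjusted p = 0.0106). CG14186 had 25.7, 19.3, 27.7, 22.2 and 22.6 RPKM in fed and 45.02, 31.5, 41.8, 38.2 and 33.9 RPKM in starved heads (log2 fold change 0.67, standard error 0.10, limma adjusted p = 0.002705). Cdc7, a kinase known from DNA replication, had 8.84, 8.59, 11.3, 8.51 and 8.903 RPKM in fed and 22.3, 21.5, 15.8, 18.03 and 13.4 RPKM in starved heads (log2 fold change 0.89, standard error 0.15, limma adjusted p = 0.0104). The groups did not overlap for any of the 3. Other early genes did not pass: Hr38 was 3.82 to 4.73 RPKM in fed and 4.41 to 6.15 RPKM in starved heads (log2 fold change 0.16, limma adjusted p = 0.568), and Arc1, which forms RNA-carrying capsids, was lower on average (log2 fold change -0.95, limma adjusted p = 0.190). CG17778, chosen after its values were seen, rose, with 9.94 to 14.1 RPKM in fed and 14.97 to 18.8 RPKM in starved heads (log2 fold change 0.44, limma adjusted p = 0.0172).

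Most genes of neuronal structure and signalling lay slightly above 0. Of 40 genes of synaptic vesicle release 34 were above 0 (median 0.12), of 71 channels 58 (0.07) and of 39 phototransduction genes 35 (0.11), with 0 calls in each. Without both heads that stood apart these counts were 30, 36 and 16 and the medians 0.03, 0.00 and -0.01. The lowest p in these lists belonged to nwk (log2 fold change 0.18, limma adjusted p = 0.196) and Syt4 (log2 fold change 0.19, limma adjusted p = 0.209), to the potassium channels KCNQ (log2 fold change 0.40, limma adjusted p = 0.0797) and Ork1 (log2 fold change -1.12, limma adjusted p = 0.137), and to Rh2 (log2 fold change 0.18, limma adjusted p = 0.1897) and rdgB (log2 fold change 0.20, limma adjusted p = 0.154). The main rhodopsin ninaE (log2 fold change -0.02, limma adjusted p = 0.955) and its arrestin Arr2 (log2 fold change 0.09, limma adjusted p = 0.667) did not pass. The channel gene para was not analysed here. Of 32 tested chemosensory receptors 0 passed, Gr32a giving log2 fold change -0.16, limma adjusted p = 0.2495. Ir40a, a humidity receptor, had 119 RPKM in fed replicate 2 and 7.404 to 9.13 RPKM in the other fed heads (log2 fold change -0.92, limma adjusted p = 0.311).

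With all heads immune and stress genes gave 0 calls in 16 antimicrobial peptide genes, 17 Toll effectors and 36 Turandot and heat shock genes, and 13 of the antimicrobial peptides were above 0 (median 0.82). Single heads moved this median from 0.39 without starved replicate 4 and 0.46 without starved replicate 3 (11 of 16 above 0) to 1.21 without starved replicate 1. Their summed level was 315, 623, 586, 589 and 633 RPKM in fed heads and 739, 1956, 649, 3632 and 1484 RPKM in starved heads, every starved head being above every fed head, by 15.6 RPKM in the closest pair. Dro (drosocin) had 4.35, 5.49, 8.495, 11.2 and 2.09 RPKM in fed and 22.7, 20.2, 6.83, 710.4 and 15.7 RPKM in starved heads, with replicate 4 apart from the other starved heads (log2 fold change 2.37, limma adjusted p = 0.314). DptB, a diptericin, had 12.3, 42.97, 13.9, 15.7 and 8.95 RPKM in fed and 13.02, 26.7, 38.2, 263 and 16.8 RPKM in starved heads, which overlapped (log2 fold change 1.13, limma adjusted p = 0.595). BaraA1 (log2 fold change 1.25, limma adjusted p = 0.282), Def (log2 fold change -1.95, limma adjusted p = 0.175) and IM33 (log2 fold change -0.69, limma adjusted p = 0.306) did not pass, nor did TotM (log2 fold change -1.49, limma adjusted p = 0.115) and Stat92E (log2 fold change -0.31, limma adjusted p = 0.190). Sid, a stress-induced DNase chosen after its values were seen, had 1.75, 1.11, 2.64, 4.18 and 1.18 RPKM in fed and 6.43, 37.3, 0.461, 13.1 and 39.4 RPKM in starved heads (log2 fold change 1.99, standard error 0.80, limma adjusted p = 0.195).

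Markers of other cell types are given for the whole head, and their part in the results above was not tested. Of 13 neuron, 21 glial, 20 muscle and 15 hemocyte markers 0 passed, with medians of 0.11, 0.08, 0.13 and -0.20. With 1 head left out that of the neuron markers ran from 0.07 to 0.17, of the glial genes from 0.05 to 0.13, of the muscle markers from -0.003 to 0.33 and of the hemocyte markers from -0.21 to -0.15. Without both heads that stood apart they were 0.03, -0.002, -0.06 and -0.16, and the hemocyte median was 0.08 with heads scaled to the same total RPKM. The muscle value was lowest without starved replicate 3 (10 of 20 above 0) and high without starved replicate 5 or fed replicate 1, and without fed replicate 1 the muscle genes Zasp66 (log2 fold change 0.72, limma adjusted p = 0.00565) and Zasp52 (log2 fold change 0.56, limma adjusted p = 0.0324) passed. Among their members VGlut (log2 fold change 0.20, limma adjusted p = 0.226) and Gad1 (log2 fold change 0.23, limma adjusted p = 0.241), the glial CG9394 (log2 fold change 0.32, limma adjusted p = 0.207), the muscle genes Zasp66 (log2 fold change 0.53, limma adjusted p = 0.104) and Act87E (log2 fold change 0.59, limma adjusted p = 0.217), and the hemocyte genes He (log2 fold change -0.33, limma adjusted p = 0.253) and NimC4 (log2 fold change 0.87, limma adjusted p = 0.251) had the lowest p, and VGlut, Gad1, CG9394 and NimC4 passed without fed replicate 1. The summed neuron markers ran from 887 to 1238 RPKM in fed and from 1061 to 1287 RPKM in starved heads. The 17 germline markers summed to 5.89 to 7.82 RPKM in fed and 5.54 to 7.03 RPKM in starved heads, only orb passing the filter (log2 fold change 0.08, limma adjusted p = 0.518), and the 15 male markers to 1.06 RPKM or less. The 24 gut markers summed to 11.7 to 82.7 RPKM in fed and 5.35 to 192 RPKM in starved heads, and 3 passed the filter, Amy-p, Amy-d and Mal-A1 (log2 fold change -0.20, limma adjusted p = 0.406). The traffic jam gene tj, known as a factor of the ovary soma and of neurons, fell, with 6.69 to 9.41 RPKM in fed and 3.31 to 4.04 RPKM in starved heads and passed without any 1 head (log2 fold change -0.90, standard error 0.13, limma adjusted p = 0.002705). Germline markers were near 0, and tj was chosen after its values were seen.

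**Figure D5:**
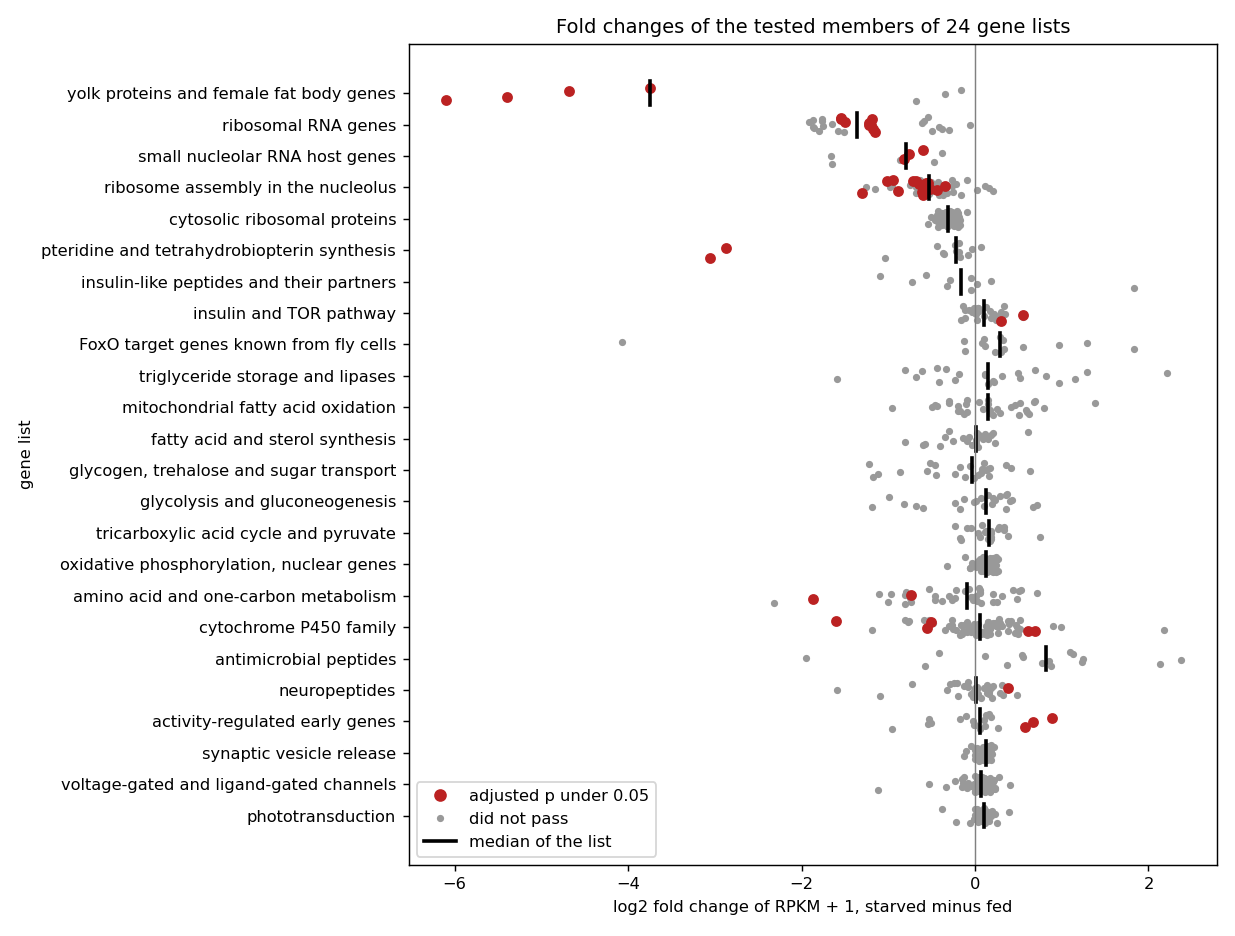
Log2 fold change, starved minus fed, of each tested member of 24 gene lists (grey, or red at an adjusted p under 0.05) with the median of each list as a black bar. The yolk list lies lowest (-3.75), and the 3 lists of ribosomal RNA, small nucleolar RNA host and nucleolar genes (median -0.53 for the last) were written after the values were seen, so their place is no test of a direction.

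The remaining genes with the largest rises among those without overlap were less well known. Grip, a PDZ-domain adaptor, had 2.71, 1.82, 1.63, 1.72 and 2.23 RPKM in fed and 2.799, 16.1, 3.182, 7.64 and 11.5 RPKM in starved heads (log2 fold change 1.39, standard error 0.32, limma adjusted p = 0.0431). The noncoding gene lncRNA:CR45018 had 4.396 to 5.29 RPKM in fed and 7.204 to 16.5 RPKM in starved heads (log2 fold change 0.99, limma adjusted p = 0.0196), CG11686 had 17.8 to 26.4 RPKM in fed and 33.7 to 60.7 RPKM in starved heads (log2 fold change 0.90, limma adjusted p = 0.0349), and CG17127 had 0.757 to 1.399 RPKM in fed and 2.23 to 3.92 RPKM in starved heads (log2 fold change 0.90, limma adjusted p = 0.0162). Ude, a uracil-DNA degrading factor, rose, with 8.63 to 9.92 RPKM in fed and 11.8 to 19.1 RPKM in starved heads and passed without any 1 head (log2 fold change 0.74, limma adjusted p = 0.0104), as did the unnamed gene FBgn0266375, had 13.2 to 15.7 RPKM in fed and 17.3 to 39.1 RPKM in starved heads (log2 fold change 0.82, limma adjusted p = 0.0106).

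Another 8 genes passed the test whichever head was left out, and they are singled out after their values were seen. The gene mld (molting defective), a zinc finger protein known from ecdysone synthesis in larvae, had 9.46, 8.59, 8.76, 8.92 and 8.98 RPKM in fed and 10.9, 11.1, 11.3, 10.5 and 10.5 RPKM in starved heads (log2 fold change 0.25, standard error 0.04, limma adjusted p = 0.0106). Abca3, a lipid transporter of the ABC family, had 18.4, 15.3, 15.1, 16.5 and 16.2 RPKM in fed and 18.5, 22.5, 22.6, 20.5 and 22.2 RPKM in starved heads (log2 fold change 0.36, standard error 0.06, limma adjusted p = 0.0104). Both rose without overlap between the groups. CG44247 had 48.8, 36.5, 48.6, 45.2 and 42.7 RPKM in fed and 62.7, 53.04, 64.3, 60.6 and 55.4 RPKM in starved heads (log2 fold change 0.41, standard error 0.07, limma adjusted p = 0.0104), and CG4577 had 129.8, 101, 138, 132 and 127 RPKM in fed and 199.999, 154, 195, 191 and 187 RPKM in starved heads (log2 fold change 0.56, standard error 0.08, limma adjusted p = 0.00336). Zyx, the adhesion protein zyxin, had 59.7, 73.2, 74.7, 69.3 and 70.7 RPKM in fed and 48.9, 48.3, 46.3, 54.6 and 52.6 RPKM in starved heads (log2 fold change -0.46, standard error 0.08, limma adjusted p = 0.01101). It was lower in every starved head. The other 3 were CG32855, which rose, and CG14515 and CG7460, which fell.

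The trained heads, which were starved and then given sucrose, are set beside these values, and the comparisons share the fed and starved heads. Among genes lower in starved heads, Gclm was 32.8 to 107 RPKM 1 h and 55.1 to 116 RPKM 4 h after training, LKR 13.1 to 63.4 RPKM 1 h and 8.65 to 15.4 RPKM 4 h after training and nop5 8.57 to 20.6 RPKM 1 h and 16.5 to 39.7 RPKM 4 h after training. The medians of Gclm, 80.7 and 97.6 RPKM, lay within and just above the fed range of 40.9 to 93.5 RPKM. Other genes stayed below the lowest fed head at both times: P5CDh2 was 2.53 to 3.81 RPKM 1 h and 3.92 to 5.09 RPKM 4 h after training, Papss 8.55 to 10.97 RPKM 1 h and 9.34 to 11.2 RPKM 4 h after training and tj 3.32 to 6.24 RPKM 1 h and 3.27 to 4.98 RPKM 4 h after training. The genes fit (2.14 to 108 RPKM 1 h and 26.8 to 148 RPKM 4 h after training) and Lsp2 (0.901 to 3.51 RPKM 1 h and 0.794 to 5.03 RPKM 4 h after training) stayed below the fed range of fit and far below the 3 high fed heads of Lsp2. Among genes higher in starved heads, SLC5A11 was 16.6 to 33.9 RPKM 1 h and 14.8 to 19.1 RPKM 4 h after training, GIIIspla2 11.4 to 30.4 RPKM 1 h and 10.7 to 33.4 RPKM 4 h after training and sr 3.59 to 4.74 RPKM 1 h and 1.58 to 2.67 RPKM 4 h after training. All 5 SLC5A11 values at 4 h were below the lowest fed value of 19.2 RPKM. AMPKalpha was 58.9 to 68.7 RPKM 1 h and 51.3 to 57.0 RPKM 4 h after training, against 43.2 to 56.4 RPKM in fed heads.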

How the data were processed

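RPKM values (reads scaled to gene length and to a library size that differed from the read total) of 17559 genes in 21 single heads were used as the authors deposited them. The submitters' processing notes name CASAVA 1.8.2, TopHat2 2.0.13, edgeR 3.18.1 and the dm6 build, and the study's methods another aligner version and build. The values came out as whole reads (within 0.0001 of a read) in all 17212 genes above 0. There were 0 unused columns of per-sample values. Reads of overlapping or near-identical genes cannot be assigned, since the libraries kept no strand.

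Genes in which 5 or more of the 21 heads had 1 RPKM or more were tested on log2(RPKM + 1) with limma 3.58.1 (R 4.3.3, variance trend), all 4 groups of the labels in 1 fit, and Benjamini-Hochberg adjustment over all tested genes at 0.05. Nothing states separate cultures or days, so p-values measure the spread between these heads. No 2 heads of a group agreed within sampling noise (lowest chi-square per gene 78.5). The fit was tested on simulated data. Alternatives changed the pseudocount (0.1), the filter (none, or a mean RPKM of at least 5), the scaling (75th percentile, total RPKM), the variance model, sample weights, the samples fitted, a replicate block, voom on recovered reads, and each head in turn.

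The heads compared and the gene lists were chosen with earlier results of these data known. Of 2535 list entries 76 matched no identifier, and 22 that named another kind of gene were dropped. Symbols came from the BDGP6.54 annotation and name tables (17279 of 17559 identifiers, 26 from a name table of the study). Named genes are the 12 highest and 12 lowest fold changes among called genes without overlap, up to 5 called members of each list, key members marked in the lists, and the 2 lowest p-values of a list without a call. Chosen after the values were seen were CG9674, Sid, GIIIspla2, LKR, Orct, pdgy, Papss, tj, Uhg1, nop5, Nop56, NHP2, mod, pths, CG17778, SNF4Agamma, CG5966, Zasp52 and CG34148, the heads left out together, and 4 lists (nucleolar, small nucleolar RNA host, ribosomal RNA and AMP-activated kinase genes). A gene that falls under this rule is not reported here.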

Additional observations from a re-analysis of the deposited data

Results flagged for a closer look

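Among 360 groups of 5 heads, 28 had 1 head farther from the others than Dixon's critical value of 0.71 allows, and chance gives about 1 group in 20. Values in the next sentences are RPKM of single heads.

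Starved replicate 3 was the low head for 7 fat body or steroid-related genes: Pepck1 (5.00), Tps1 (5.22), Hex-C (1.70), v (1.12), AkhR (0.513), Ilp6 (7.35) and the ecdysone importer Oatp74D (3.25). In the same head Dh31-R (11.6) and per (8.15) were high. Starved replicate 5 was high for Atg8a (430) and Treh (187) and low for Gpo1 (30.6) and Fatp2 (1.36). Starved replicate 2 was high for Glyp (320) and low for sNPF (38.2), and starved replicate 4 was high for Dro (710).

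Fed replicate 2 was high for Ir40a (119), Mondo (37.6) and He (4.67), and small structural RNAs took 3.25% of its reads. Fed replicate 3 was high for Cdc7 (11.3) and cbt (31.8). Fed replicate 5 was high for mt:ND6 (45.6) and low in the summed level of the glial genes (1420). Fed replicate 6 was high for Def (117). Fed replicate 1 was high for Act87E (75.9) and in the summed level of the muscle markers (3510), and low in that of the antimicrobial peptides (315).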

How the results depend on the processing

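The count of 159 changed genes, 28 of them members of the lists, depended on the fit. It was 79 (18 list members) without a filter, 79 (16) with voom on recovered reads, 855 (96) with heads scaled to the same total RPKM, 1840 (198) with sample weights, 14 (4) when only the 10 heads compared were fitted and 29 (8) without fed replicate 2 and starved replicate 3, an alternative chosen after the data were seen. With 1 head left out it ran from 28 to 784, and that of list members from 6 to 89. The pseudocount, the 75th percentile, the stricter filter and the other variance models kept it between 153 and 177. The cause was not tested. Leaving out a head also leaves fewer samples, and low genes are limited by depth: 1 read is a larger share of them.

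A fit with the replicate number as a block gave 54 genes (23 higher, 31 lower) and 12 list members. The numbers pair no heads: the deviations of same-numbered fed and starved heads correlated at -0.25, 0.14, -0.22 and -0.19 for numbers 1, 2, 3 and 5, so no block value stands beside a result.

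Genes that passed were selected in the same data for a large change against their spread, so the contrast below is no test of them. None of the 57 named genes that passed the test reversed under any alternative run, while 29 named genes that did not pass changed sign under at least 1. Given as log2 fold changes, with heads scaled to the same total RPKM these were Mitf 0.075, CkIIalpha 0.037, Ac76E 0.10, Stat92E 0.013, Mal-A1 0.044, Ilp2 0.0398, Zw 0.0052, Pepck1 0.19, Hn 0.097, Pu 0.15, tim 0.012, vri 0.12, Pdp1 0.31, Dh44 0.11, Lk 0.15 and ninaE 0.31. With sample weights they were ACC -0.21, Pepck1 0.94, Glys -0.023, Treh -0.011, Pdp1 0.047, NPF -0.061 and Arr2 -0.022. Without the 2 heads that stood apart they were Zw 0.23, fbp 0.27, Pepck1 1.71, Tps1 0.18, Hn 0.20, v 0.088, sNPF -0.006, Vmat -0.019 and Arr2 -0.0004. With the 75th percentile they were Pdp1 0.019 and ninaE 0.016, with the replicate block ninaE 0.013, with a pseudocount of 0.1 Amy-d -0.14 and with voom Amy-d -0.20. Over the fits that left out 1 head, those that changed sign ranged as follows: Mondo from -0.052 to 0.34, ACC from -0.32 to 0.47, Zw from -0.72 to 0.052, fbp from -1.02 to 0.0305, Pepck1 from -0.65 to 1.41, Glys from -0.048 to 0.22, Tps1 from -1.71 to 0.044, Amy-d from -0.47 to 1.14, Hn from -0.55 to 0.15, Pu from -0.39 to 0.039, Atg1 from -0.003 to 0.066, Pdp1 from -0.047 to 0.037 and ninaE from -0.073 to 0.051.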
